A study of Mus musculus with 4 samples.

Results

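The cells described here were the cartilage cells of mouse femur and tibia, found among single cells whose transcripts and CD24 surface protein were read together. They were chosen by their RNA: a cell needed at least 5 unique molecular identifiers (UMIs, each 1 captured transcript) of Col2a1, at least 1 of Col9a1, and at least 1 of Acan or Matn3. In all 71 of 15670 kept cells met this rule. The young mouse gave 59 of 10063 cells (0.586%) and the old mouse 12 of 5607 (0.214%).

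Both mice were INK-ATTAC mice, which carry an inducible caspase 8 driven by the p16 promoter, and neither received treatment. The young animal was 6 months old and the old animal 24 months old. There was 1 library per age, each taken here as 1 mouse, so age cannot be told apart from the animal or the library. The bones were cut at both ends, marrow and crushed shafts were digested with enzymes, blood lineage cells were depleted, and live cells without CD45 were sorted. The number of chondrocytes therefore describes what the digest and the sort released, not the tissue.

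Chondrocytes are the cells that make and keep cartilage. They secrete a network of type II, IX and XI collagen that is filled with aggrecan, a large proteoglycan that holds water, and the transcription factor Sox9 with its partners Sox5 and Sox6 drives these genes. In the growth plate chondrocytes pass from resting to dividing to enlarged (hypertrophic) cells. Ihh marks cells on the way to enlargement and Col10a1 the enlarged cells. Cells at the joint surface instead make lubricin, the product of Prg4.

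The rule found few cells. Of the kept cells, 187 young and 130 old cells held 5 or more Col2a1 UMIs. The demand for Col9a1 left 63 and 21, and that for Acan or Matn3 left 59 and 12. Every member carried Acan, while Matn3, a cartilage adaptor protein, was found in 20 young and 4 old members. At the threshold, 2 young members had exactly 5 Col2a1 UMIs, and 3 young cells with 4 UMIs met the rest of the rule. Those 3 cells resembled the members, with a median of 21 UMIs of the cartilage proteoglycan gene Snorc. The 124 young and 109 old cells with enough Col2a1 but no Col9a1 had a median of 0 Snorc UMIs in both mice. Snorc was found in 58 of the 59 young but only 7 of the 12 old members, so it does not set all old members apart. A single Col9a1 UMI was held by 17 young members, with a median of 18 Snorc UMIs, and by 1 old member. Values of genes from these same cells are descriptions and carry no test.

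Sox9, which was not part of the rule, was detected in 94.9% of the young members (95% exact Clopper-Pearson interval 85.9 to 98.9) and in 91.7% of the old members (61.5 to 99.8). Among the other kept cells the share was 19.8% and 19.3%. Megakaryocyte-marked cells, which should lack Sox9 and so show the level of free RNA, had it in 6.49% of 77 young and 1.72% of 58 old cells. Their median depth of 10566 and 10784 UMIs lay near the young members' 10867 and below the old members' 20808. After each cell was thinned to 2000 UMIs, Sox9 was found in 75.4% and 58.3% of members, against 9.43% and 7.20% of other cells. Intervals in this report cover counting error only.

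Members were deeper than the other kept cells, which had medians of 6362 (young) and 9699 (old) UMIs. The young members summed to 746817 UMIs and the old to 262127. Scrublet predicted 2 young and 0 old members to be doublets. The 2 libraries shared 25 barcodes, and 0 members were among them. RNA of blood cells was low. The 4 macrophage markers were at 0 in every member, with only 1.08 and 1.82 CPM (UMIs of a gene per 1000000 UMIs of the group) in the other young and old cells, and the 6 neutrophil markers summed to 12.1 CPM in young and 49.6 in old members, against 2557 and 7221 in the other cells.

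The genes highest in chondrocytes against all other kept cells formed a compact cartilage set. Ratios here and below are log2 of CPM of summed UMIs with 5 CPM added. By the mean over both mice the first 5 were Snorc (7.88), Mia (7.84), Col9a3 (7.36), Cnmd (7.21) and Col9a2 (6.98). Mia encodes a small secreted cartilage protein, and Cnmd encodes chondromodulin, which keeps vessels out of cartilage. They were followed by Col2a1, Col9a1, Scrg1, Serpina1d, Hapln1, Fxyd3, Fxyd2, Ucma, Cytl1 and Panx3, down to a ratio of 5.61. The lowest were the hemoglobin genes Hbb-bs (-7.30), Hba-a1 (-6.52) and Hbb-bt (-6.32) and the neutrophil genes S100a8 and S100a9 (both -6.83).

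For these leading genes, the DNA just before the start site is shown as context. RefSeq windows (GRCm38.p6, the mm10 build) were held for 9 of the 15 leading genes, 10 windows in all because Col9a1 has a pair of start sites. The 250 bases before the start are given for the 3 highest ranked of these genes and for Hapln1, which encodes the link protein of aggrecan, on the coding strand from 5′ to 3′. Capitals mark ACAAT, a core of the SOX protein site, searched on both strands.
Mia, chr7:27181150-27181399, minus strand: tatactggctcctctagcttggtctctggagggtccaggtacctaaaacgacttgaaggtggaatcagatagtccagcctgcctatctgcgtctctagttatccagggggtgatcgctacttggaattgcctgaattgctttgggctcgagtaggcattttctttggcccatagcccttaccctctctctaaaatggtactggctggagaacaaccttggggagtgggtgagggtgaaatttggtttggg
Cnmd, chr14:79662184-79662433, minus strand: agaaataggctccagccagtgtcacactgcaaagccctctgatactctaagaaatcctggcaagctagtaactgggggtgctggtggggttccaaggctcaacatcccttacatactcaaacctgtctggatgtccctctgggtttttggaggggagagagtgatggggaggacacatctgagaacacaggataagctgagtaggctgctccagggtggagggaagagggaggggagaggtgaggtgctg
Col9a2, chr4:121039316-121039565, plus strand: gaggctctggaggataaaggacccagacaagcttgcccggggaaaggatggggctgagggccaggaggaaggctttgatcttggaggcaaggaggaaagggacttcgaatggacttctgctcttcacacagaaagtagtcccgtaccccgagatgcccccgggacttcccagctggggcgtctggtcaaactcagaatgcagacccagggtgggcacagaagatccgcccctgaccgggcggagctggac
Hapln1, chr13:89540386-89540635, plus strand: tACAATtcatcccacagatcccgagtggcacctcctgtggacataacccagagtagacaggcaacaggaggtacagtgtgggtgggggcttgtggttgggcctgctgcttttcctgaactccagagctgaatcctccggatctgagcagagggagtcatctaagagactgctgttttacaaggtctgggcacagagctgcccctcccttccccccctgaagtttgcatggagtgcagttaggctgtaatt

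Only the Hapln1 window held ACAAT, 1 of the 10 (10.0%), against 27.7% of all 32851 windows. TATAAA, the letters of a TATA box, was in 0 of the 10 windows and in 12.4% of all. GC content was 50.4% for Mia, 54.0% for Cnmd, 60.4% for Col9a2 and 54.4% for Hapln1, beside a median of 52.4% over all windows. The absence of a match says only that these letters were not in this stretch of DNA.

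Of 8723 genes with a mean of 10 CPM or more, 339 (3.89%) were higher in chondrocytes by a log2 ratio past 1 in both mice and 910 (10.4%) were lower. All 7 cartilage collagens were higher, which the rule favoured through Col2a1 and Col9a1. Col11a1 and Col11a2, whose chains build the collagen XI core of the fibril, reached 3041 and 1405 CPM in young members against 131 and 29.3 in other cells. In the old mouse they were 1881 and 893 against 260 and 106. Of 16 measured matrix proteins 15 were higher, among them Chad, a collagen-binding protein, at 7512 CPM in young members against 304 in other cells and at 5089 against 115 in the old mouse. Acan and Matn3, which are among the 15, were favoured by the rule. Acan had a median of 12 UMIs in young and 24 in old members. Matn4 was the one that was not called. In the old mouse 1 cell held 55.8% of the Chad, 73.3% of the Mia and 50% of the Snorc UMIs.

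**Figure D1:**
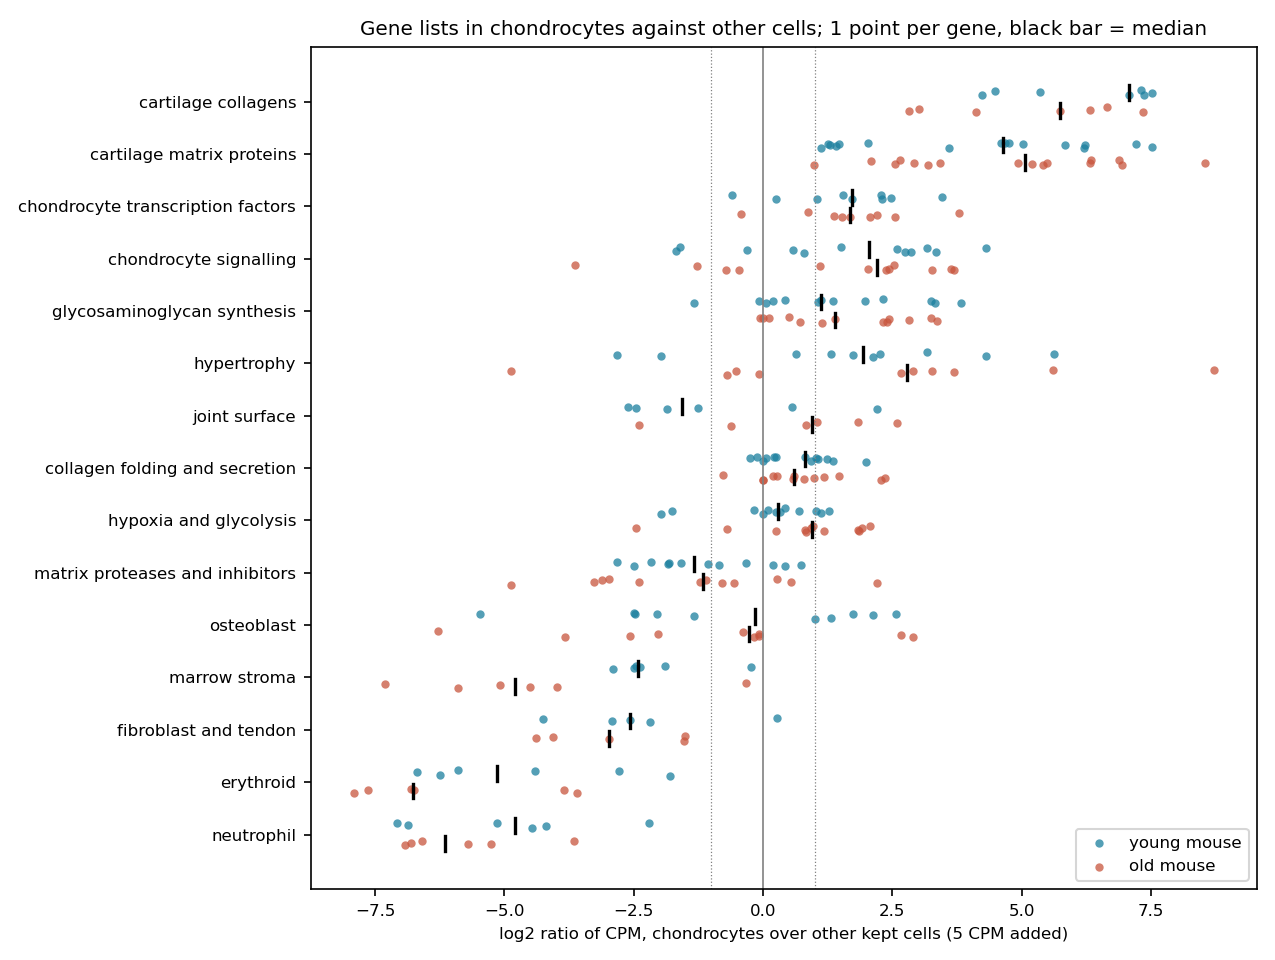
Log2 ratio of CPM in chondrocytes over other kept cells for the measured genes of 15 lists, 1 point per gene and mouse, with a black bar at the list's median and dotted lines at 1 and -1. Cartilage collagens have medians of 7.08 (young) and 5.75 (old), while erythroid genes lie at -5.15 and -6.78.

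The transcription factors of the lineage followed. Sox9 stood at 856 CPM in young and 851 in old members, against 73.3 and 56.9 in other cells. Sox5 was at 208 and 210 CPM against 37.8 and 31.6, and Sox6 at 76.3 and 114 against 22.8 and 32.2. These 3 values differed little between the mice. Trps1, Mef2c and Foxa3 were also higher, so that 6 of 9 measured factors were called, though 1 old cell held 74.2% of the old Mef2c UMIs. Runx2, the osteoblast and hypertrophy regulator, was not, with ratios of 0.25 and -0.43.

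Growth-factor receptors and their antagonists marked the cells as well, with 7 of 12 signalling genes higher. Fgfr3, the receptor that slows growth plate chondrocytes, was at 250 CPM in young and 244 in old members against 20.0 and 15.2 elsewhere. Pth1r, the receptor for parathyroid hormone-related protein, was at 1323 and 1343 against 142 and 136, and at 693 in the old mouse without 1 cell that held 58% of its UMIs. The hedgehog receptor Ptch1 had ratios of 2.75 and 2.43, the Wnt antagonists Wif1 (2.86 and 2.38) and Frzb (2.59 and 2.54) were close to it, and Npr2, the receptor for C-type natriuretic peptide, had 1.51 and 2.03. Grem1, a BMP antagonist of marrow stroma, was lower, at -1.61 and -3.63.

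The machinery that builds the sulphated sugar chains of aggrecan was partly raised. Of 13 such genes 8 were higher and 0 lower. Chst11, the chondroitin sulfotransferase, had ratios of 3.82 and 3.37, Xylt1, which starts the chain, had 3.32 and 3.24, and Papss2, which supplies sulphate, had 3.25 and 2.43. The sulphate transporter Slc26a2 had 1.98 and 2.33. Of 13 genes of collagen folding 4 were higher, the prolyl hydroxylases P4ha1 and P4ha2, the lysyl hydroxylase Plod2 and the secretory regulator Creb3l2, and the medians of that list were 0.81 and 0.60. All genes tested had a median of -0.30 (young) and -0.28 (old).

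Genes of matrix breakdown and division were on the other side. Of 12 proteases and inhibitors 5 were lower and 0 higher, with Mmp13 at -2.83 and -4.87 and Mmp3 at -1.07 and -3.11. Of 7 cell cycle genes 6 were lower. Mki67 or Top2a was seen in 7 young members and 1 old member, at 1 UMI of each gene at most per cell. Few members thus held RNA of dividing cells.

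Several lists hardly set the members apart. Of 12 hypoxia and glycolysis genes 1 was higher (Eno1, a glycolytic enzyme) and 1 lower (Epas1), with medians of 0.29 and 0.94, and of 10 immediate-early and stress genes 0 were called. Of 4 measured resting zone genes 1 was higher (Ucma), and of 6 joint surface genes Prg4 was higher and Tppp3 lower. Among lists of other cells, 2 of 10 osteoblast genes were higher (Alpl and Ibsp) and 3 lower, while 0 were higher and 5 of 6 marrow stroma, 4 of 5 fibroblast and tendon, and 4 of 4 pericyte genes were lower. Summed over the list, osteoblast genes were at 18902 CPM in young members against 15726 in other young cells, and at 40732 against 24696 in the old mouse, or 27741 without 1 old cell that held 44.5% of the sum. Their part in the values above was not tested.

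The members were not uniform, and Prg4 divided them with a gap in its counts. Prg4 was at 0 to 5 UMIs in 46 young members and at 19 to 2025 in the other 13, and no young cell fell between. In the old mouse 4 members had 0 or 1 UMI and 8 had 33 to 542. A limit of 10 UMIs, set after these values had been seen, thus gave 13 of 59 (22.0%) young and 8 of 12 (66.7%) old Prg4 cells. Prg4 cells had a median depth of 10352 (young) and 23308 (old) UMIs, beside 11548 and 18554 in the rest. The 2 young members predicted as doublets were Prg4 cells, with 166 and 31 Prg4 UMIs. Among all 10063 kept young cells 269 were predicted as doublets. The young Prg4 cells with 19 and 31 Prg4 UMIs also held 68 and 96 Col1a1 UMIs. Free Prg4 RNA was present, since 15.6% and 13.8% of megakaryocyte-marked cells held a UMI. How many Prg4 UMIs each of those cells held was not measured, so free RNA at the limit of 10 was not tested.

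**Figure D2:**
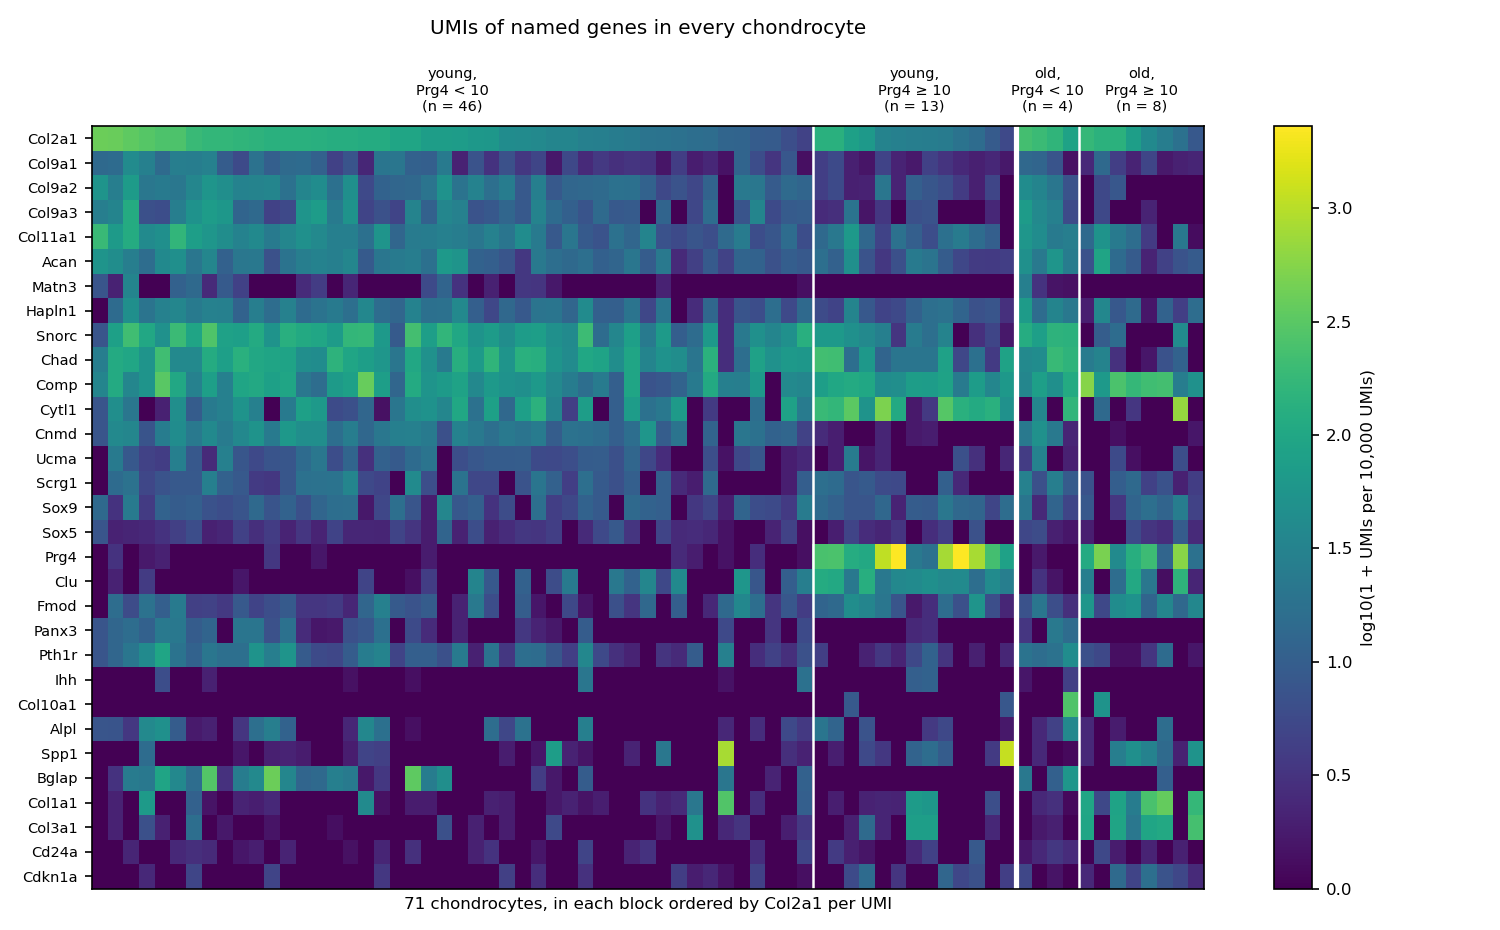
UMIs per 10000 UMIs of 31 named genes (rows, colour on a log10 scale) in each of the 71 chondrocytes (columns), in blocks by mouse and by Prg4 under or at 10 UMIs. Prg4 cells lack Matn3 and nearly lack Cnmd, and 6 of the 8 old Prg4 cells hold 20 or more Col1a1 UMIs.

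Cnmd was close to the mirror image of Prg4. In young cells under the Prg4 limit Cnmd was found in 44 of 46, with a median of 22.5 and a highest value of 88 UMIs, and in Prg4 cells it never passed 1 UMI. In the old mouse the 4 other cells held 6, 37, 45 and 69 UMIs and the 8 Prg4 cells at most 2. Matn3 was seen in 20 of 46 and in 4 of 4 of the other cells, and in 0 of the 13 and 0 of the 8 Prg4 cells. Against the floor of 3 UMIs, Matn3 was at least 10.1-fold lower in young and at least 27.7-fold lower in old Prg4 cells. The old value rests largely on 1 cell, which held 45 UMIs, or 88.2% of the old Matn3 sum.

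**Figure D3:**
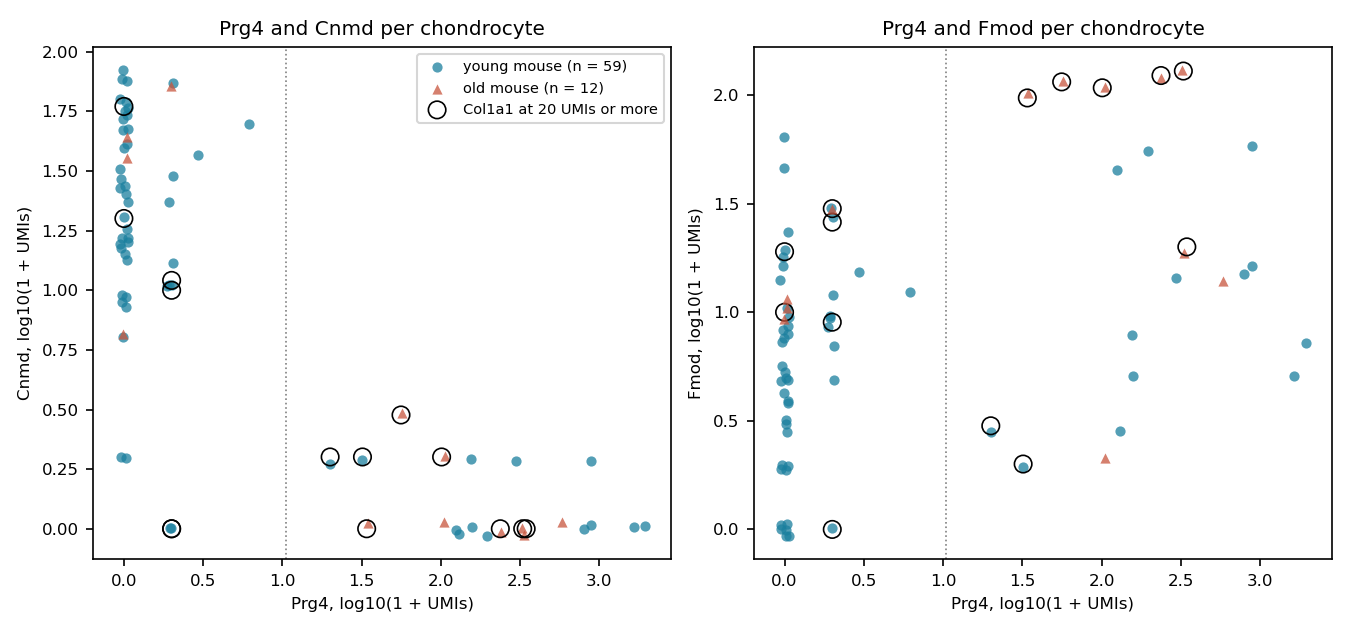
UMIs of Prg4 against Cnmd (left) and Fmod (right) in each chondrocyte, as log10(1 + UMIs), with circles around cells with 20 or more Col1a1 UMIs and a dotted line at the Prg4 limit. No Prg4 cell holds more than 2 Cnmd UMIs, and 5 old Prg4 cells with Col1a1 hold the 5 highest Fmod counts.

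Other genes sorted with Prg4 in both mice. Cilp, a protein of the cartilage intermediate layer, was at 2757 CPM in young Prg4 cells against 9.84 in the rest, and at 2310 against 0 in the old mouse, where it was at least 76.8-fold higher. Cilp2 was at 904 against 14.8 and 505 against 10.0, and in the old mouse 1 cell held 63.9% of its UMIs. Clu, which encodes the chaperone clusterin, was at 5397 against 448 in the young and 3357 against 40.1 in the old mouse, and each of the 13 young Prg4 cells held 16 or more UMIs. Megakaryocyte-marked cells carried Clu in 85.7% and 91.4%, so its presence alone marks no cartilage cell. Creb5 and Erg, transcription factors of joint cartilage, followed the same order, with 31 and 10 UMIs in young Prg4 cells and 46 and 15 in old ones. The other young chondrocytes held 6 and 0 UMIs, and the other old chondrocytes 0 of both.

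Type II and IX collagen were lower in Prg4 cells. Col2a1 was at 4376 CPM in young Prg4 cells against 10446, and at 6905 against 13990 in old ones. Col9a3 was at 299 against 2262 and at 18.5 against 2505. Mia was at 284 against 3636 and 73.9 against 9710, and Snorc at 2458 against 9810 and 480 against 13038. Acan was at 1174 against 1934 and 832 against 3447. Sox9, in contrast, was at 992 against 825 CPM in young cells and 899 against 772 in old cells, so its log2 difference was 0.26 and 0.22. The clotting factor genes F5 and F13a1, Hpgd, a prostaglandin-degrading enzyme, and the sodium pump subunit Fxyd2 were lower in Prg4 cells of both mice too.

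The mice did not share the order of every gene. Cytl1, a secreted cartilage cytokine-like protein, was higher in young Prg4 cells (13900 against 3082 CPM) and was found in 13 of 13, but in the old mouse it was seen in 3 of 8 Prg4 cells and 1 of those held 647 of their 656 UMIs. Col1a1, the collagen of bone and tendon, was at 1262 against 1442 CPM in young cells and at 15665 against 70.1 in old cells. Of the 8 old Prg4 cells 6 held 63, 207, 224, 436, 569 and 1043 Col1a1 UMIs, and the same 6 held 52 to 761 of Col3a1. Among the 59 young members 8 had 20 or more Col1a1 UMIs, of which 2 were Prg4 cells. The word hyaline thus describes the rule better than these cells, since Col1a1 is a collagen of fibrous tissue and bone. Median Sox9 in the 6 old cells was 22 UMIs and median Acan 17.

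Bglap, which encodes the bone protein osteocalcin, was found where Prg4 was not. It reached 10 UMIs in 19 young members, all under the Prg4 limit, and 0 of the 13 young Prg4 cells held 1 UMI. In the old mouse 4 members reached 10, with 20, 27, 35 and 277 UMIs, of which the cell with 27 was a Prg4 cell with 1043 Col1a1 UMIs. The 19 young cells were not poor in cartilage RNA: Col2a1 had a median of 255 UMIs and Snorc of 162, while Col1a1 had a median of 1. They were also deeper, with a median of 19769 UMIs against 9311 in the 27 young cells low in both genes. In CPM Col2a1 was 13341 against 6641, Panx3 835 against 266 and Pth1r 1984 against 1029. Bglap was detected in 15.7% of other young cells and 2.60% of megakaryocyte-marked cells, and Bglap and Bglap2 are near-identical copies whose reads may be split. Of the other osteoblast markers Ibsp, bone sialoprotein, was abundant, with 7295 UMIs in young and 5555 in old members, of which the old cell richest in Col10a1 held 76.7%. Alpl had 457 and 229 UMIs. Dmp1, a gene of osteocytes, was at 0 in both mice, and Sp7 was at 51 UMIs in all young and 7 in all old members.

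Some hypertrophy genes were carried by few cells. Of 10 hypertrophy genes 6 were higher against other cells. Pth1r was widespread, in 52 of 59 young and 11 of 12 old members. Panx3 was found in 30 young and 3 old members and Alpl in 30 and 6. In the young mouse no single cell held more than 12.1% of the UMIs of these genes. Ihh was found in 9 young and 2 old members, with 38.0% of the young and 94.1% of the old UMIs in 1 cell. Col10a1 was found in 2 young members (8 and 11 UMIs) and in 2 old members (12 and 1319 UMIs). The cells with 8, 11 and 12 were Prg4 cells, with 125, 127 and 110 Prg4 UMIs. Each of them held 0 UMIs of Ihh and of Panx3. The old cell with 1319 held 99.1% of the Col10a1 UMIs of its mouse. That cell also held 16 Ihh, 204 Pth1r, 70 Panx3, 173 Alpl and 277 Bglap UMIs, together with 420 of Col2a1. It was the deepest old member, at 48653 UMIs. Mmp13, a protease of the last hypertrophic cells, was seen in 9 young members, with 78.4% of its UMIs in 1 cell.

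The question of age could be put only to 1 mouse against 1 mouse. Among 7761 genes 243 (3.13%) were higher in the old members and 193 (2.49%) lower, called where the log2 ratio passed 1 and the exact Poisson intervals of the CPM did not overlap. Cartilage genes did not all go one way. Col2a1, which the rule used, was at 9332 CPM in young and 9602 in old members, Hapln1 at 1714 and 1709, and Sox9 at 856 and 851. Col9a1, also used by the rule, had a log2 ratio of old to young of -1.32, Col9a2 -1.24, Cnmd -1.55 and Ucma -1.39, and these 4 were called lower. With every cell thinned to 2000 UMIs only 62 and 25 genes were called, since fewer UMIs give wider intervals.

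The 10 genes with the highest ratio of old to young members, under a limit of 25% of UMIs in 1 cell, were Klf4, Fmod, P4ha2, Col5a2, Bgn, Tiparp, Sqstm1, Atf4, Lum and Ppp3ca. Fmod, a small proteoglycan that binds collagen fibrils, was at 2506 CPM (2318 to 2706) in old and 864 (798 to 933) in young members. Lum, its relative lumican, was at 2461 and 1082, and Bgn, biglycan, at 3758 and 1559. The transcription factor Klf4 was at 2220 and 758. In the other kept cells these genes differed far less, with Klf4 at 499 in the old and 614 in the young mouse and Fmod at 326 and 348.

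Prg4 cells made up 66.7% of old and 22.0% of young members, and these ratios moved when they were left out. Among members under the Prg4 limit alone, a comparison added after the data had been seen with 4 old cells, the log2 ratio of old to young was -0.23 for Fmod in place of 1.53, -2.35 for Lum in place of 1.18 and -1.66 for Col5a2 in place of 1.30. It was 0.07 for Bgn in place of 1.27 and 0.51 for Klf4 in place of 1.54. Ppp3ca, a calcineurin subunit, kept 1.08 in place of 1.13. Of the 7 joint surface genes 6 were measured, and Cd44, Creb5, Abi3bp and Erg, 4 of 6, were called higher in the old mouse. All their old UMIs (22, 46, 370 and 15) lay in Prg4 cells. Among old members with CD24 protein under the threshold given below, 1 cell held 73% of the 352 Abi3bp UMIs. For Cd44 1 cell held 47.6% of the 21 UMIs of these members. Within Prg4 cells Creb5 was at 226 CPM in young and 283 in old cells, and Erg at 72.9 and 92.4. Of 12 hypoxia and glycolysis genes 4 were called higher (Bnip3, Egln3, Vegfa and Pgk1). Under the Prg4 limit Pgk1 was at 103 CPM in young and 110 in old cells, and Bnip3 at 62.3 and 70.1. Within Prg4 cells Pgk1 was at 87.5 and 517, and Bnip3 at 80.2 and 296. Vegfa had 5 young and 14 old UMIs in Prg4 cells, and 6 and 4 in the rest. Egln3 had only 9 old UMIs, 88.9% of them in 1 cell. Of 7 cartilage collagens 2 were called lower (Col9a1 and Col9a2), with ratios of -0.84 and -0.22 under the Prg4 limit.

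Of the 10 genes with the lowest ratio 7 were at least 3.63 higher on the log2 scale in young members than in other young cells, the others being Gm8797, Myoc and Slc40a1. Chil1, a chitinase-like protein of cartilage, was at 49.6 CPM (26.4 to 84.8) in old and 1079 (1006 to 1156) in young members, and Ccn6 at 11.4 and 106. Calml3, a calmodulin-like protein, was at 3.81 and 92.4, and Dapl1 had 51 UMIs in young and 0 in old members, at least 5.97-fold lower against the floor of 3 UMIs. Serpina1a, Serpina1b and Serpina1d were at 3003, 360 and 1614 CPM in young and 175, 22.9 and 244 in old members. These 3 are near-identical copies, so their separate values are uncertain. Among members under the Prg4 limit the ratios were -3.50 for Chil1, -1.60 for Serpina1d and -1.85 for Ccn6. Gm8797, a predicted gene, had 109 and 0 UMIs, and it was also lower in the other cells of the old mouse (9.26 against 166 CPM).

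**Figure D4:**
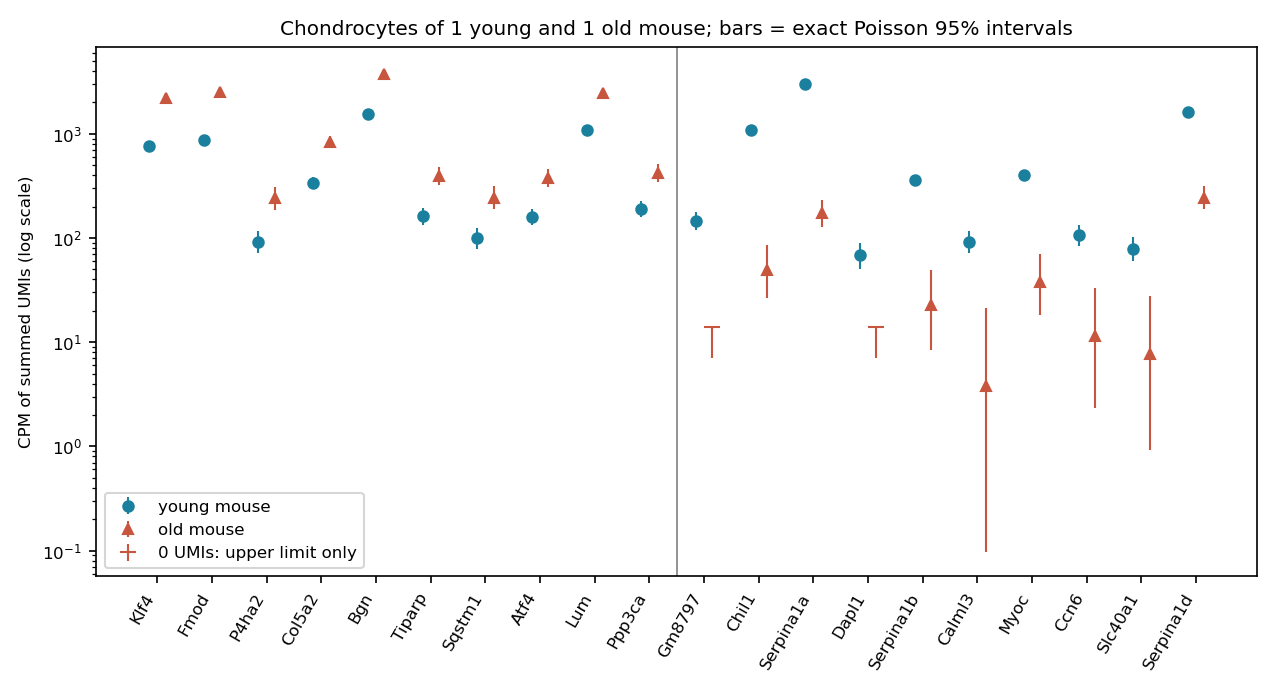
CPM of summed UMIs (log scale) in young (circles) and old (triangles) chondrocytes for the 10 genes highest and the 10 lowest in old against young, with exact Poisson 95% intervals. A flat line with a stem marks the upper limit for 0 UMIs, as for Gm8797 and Dapl1 in the old mouse.

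Marrow stroma genes also differed between the ages. Lepr was at 104 CPM in young and 7.63 in old members and Cxcl12, a chemokine of marrow stroma, at 1173 and 34.3. In the young mouse 2 cells held 61.4% of the Cxcl12 and 59% of the Lepr UMIs, and without them the values were 474 and 44.9 CPM. In all 4 of the 6 list members were called lower in the old mouse. The summed share of the 6 genes ranged from 0% to 2.29% of a young member's UMIs and from 0.00611% to 0.0870% of an old member's. In 10 young members and 1 old member the 6 genes reached 10 UMIs in sum. All 6 genes were detected in members of both mice, and their part in the age differences was not tested. The osteoblast list was at 18902 CPM in young and 40732 in old members, or 27741 without the cell richest in Col10a1. Of its 7 measured genes 3 were higher in the old mouse (Ibsp, Col1a1 and Col1a2) and 2 lower (Bglap and Bglap2). Old Prg4 cells held 2543 Col1a1 and 1884 Col1a2 UMIs, against 7 and 27 in the other old members.

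Senescence genes, the subject of the study, were sparse. Cdkn2a, which encodes p16, was seen in 2 of 59 young members (3.39%) and in 0 of 12 old members, which allows a share of up to 25% of cells with a UMI by the floor of 3 counts (exact upper limit 26.5%). Other young and old cells held it in 0.93% and 3%, and megakaryocyte-marked cells in 0% and 1.72%. Cdkn1a, which encodes p21, was found in 33.9% of young and 75% of old members, at 138 CPM (113 to 167) and 420 (345 to 506). Of other young cells 41.9% held it, of other old cells 34.9%, and of megakaryocyte-marked cells 18.2% and 12.1%. After thinning the members' shares were 15.8% and 50%. Cdkn1a also went with Prg4, at 416 against 75.4 CPM in young and 628 against 80.2 in old cells. Cxcl1 was at 401 CPM in old and 10.7 in young members, all 105 old UMIs lay in Prg4 cells, and 48.6% of them in 1 cell. Il6 was at 0 in both.

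CD24 protein was read independently of the rule. Cells with more than 317 antibody UMIs in the young library, or more than 403 in the old, counted as CD24+. Of the young members 23 of 59 (39.0%, interval 26.5 to 52.6) were CD24+, and of the other young cells 15.3% (14.6 to 16). Of the old members 3 of 12 (25.0%, 5.49 to 57.2) were CD24+, and of the other old cells 13.4% (12.5 to 14.3). Antibody counts rose with depth in the young mouse (Spearman rho 0.45 over 59 cells of 1 library). Other cells within the members' middle range of depth were CD24+ in 17.5% (16.1 to 19.0) of young and 21.1% (18.3 to 24.1) of old cells. That range holds only the middle part of the members. The young members' interval lay above that of these cells, and the old members' interval contained it. The other cells with 5 or more Col2a1 UMIs were CD24+ in 24.2% (17.1 to 32.6) of 128 young and 16.9% (10.7 to 25) of 118 old cells, and both intervals overlapped those of the members. With 2 mice an exact paired permutation test cannot go below p = 0.5, so no test was made.

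**Figure D5:**
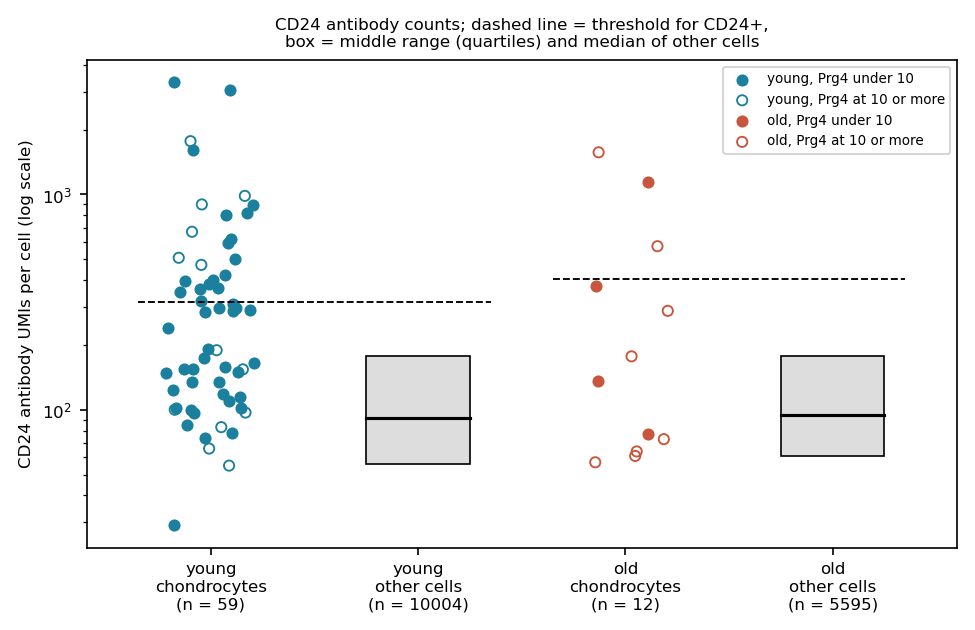
CD24 antibody UMIs per cell (log scale) for each chondrocyte, filled under and open at or above 10 Prg4 UMIs, beside the quartiles and median of other kept cells, with a dashed line at the CD24+ threshold. Young members run from 29 to 3328 with a median of 240, against 92 in other cells, and 16 of the 59 lie within 1.5-fold of the threshold.

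The antibody count of young members ran from 29 to 3328 with a median of 240, and that of old members from 57 to 1570 with a median of 156. The medians in other cells were 92 and 95. Among young Prg4 cells 6 of 13 (46.2%, 19.2 to 74.9) were CD24+ and among the rest 17 of 46 (37.0%, 23.2 to 52.5), which overlapped widely. The mRNA, Cd24a, was found in 40.7% of young and 66.7% of old members, in 14.8% and 18.6% of other cells and in 3.90% and 3.45% of megakaryocyte-marked cells. Its level did not follow the share, at 92.4 against 116 CPM in young and 83.9 against 170 in old cells. Of the 23 young CD24+ members 12 held a Cd24a UMI, as did 12 of the 36 CD24- members.

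No gene separated CD24+ from CD24- chondrocytes by the replicated test. UMIs were summed per mouse and status (23 and 36 young cells, 3 and 9 old cells) and compared by edgeR's quasi-likelihood F test with the mouse as a block. Of 3593 genes 0 (0%) had a Benjamini-Hochberg adjusted p at or under 0.05, and 77 had an unadjusted p under 0.05. DESeq2 also called 0, with 21 at an unadjusted p under 0.05. In simulated counts of this layout the test found 148 of 170 genes changed by 3 on the log2 scale, counted among genes past the filter on low counts. Every simulated gene had the same dispersion and no simulated sum rested on single cells, unlike the real sums. Real differences of that size or smaller may therefore be missed. All 3 old CD24+ cells differed in kind: the first had 2300 UMIs with 18% of them mitochondrial, the second carried 436 Col1a1 UMIs, and the third was the Col10a1 cell.

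Values of single genes are therefore descriptions. Cd24a had a log2 ratio of CD24+ to CD24- of 0.63 (SE 0.523, edgeR adjusted p = 1), with 91.6 against 93.0 CPM in the young and 161 against 56.7 in the old mouse. Col2a1 had -0.30 (SE 0.472) and Sox9 -0.07 (SE 0.421). Cdkn1a had 0.11 (SE 0.45), at 145 against 132 CPM in young and 410 against 423 in old cells. For Cdkn1a 1 cell held 51% of the young and 1 cell 100% of the old CD24+ UMIs. In the CD24- sums the top cell held 20.4% and 41.5%. Spp1, which encodes osteopontin, was at 290 against 9258 CPM in the young mouse and 776 against 2064 in the old, a log2 ratio of -3.17 (SE 0.803) with an adjusted p of 1 in edgeR, and 2 CD24- young cells held 95.8% of the young CD24- sum, which was 429 CPM without them. Timp1, an inhibitor of matrix proteases, had -1.66 (SE 0.477), also with an edgeR adjusted p of 1, and 1 cell held 66.7% of the young CD24- sum, which was 140 CPM without it against 115 in CD24+ cells.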

How the data were processed

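The authors deposited raw counts, that is whole UMIs, for 32285 genes and the CD24 antibody, as a matrix for each animal. Per the file headers these came from Cell Ranger 6.1.1, and per the labels the build was mm10, with R 4.0.3 and Seurat 4.0 used later. No scaling had been applied to these counts, so free RNA in a droplet is counted with the cell. Depth was 746817 UMIs over young and 262127 over old members, so CPM of 1 UMI is far coarser in the old mouse.

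Cells with under 200 genes or over 20% mitochondrial UMIs were left out (1308 young and 1122 old barcodes, 0 of which met the gene rule). Scrublet, as run in scanpy 1.11.5 with seed 1 on each library, predicted doublets, which stayed in the main values. CPM were computed from UMIs summed per mouse, with exact Poisson intervals, and shares with exact Clopper-Pearson intervals, all at 95%. The floor for a gene without UMIs was 3 counts. The CD24 thresholds were fixed together with the rule for the members, and the study's methods give none. Megakaryocyte-marked cells had at least 5 Pf4 and 1 Ppbp UMIs. CD24+ and CD24- sums were compared with edgeR 4.0.16 (TMM, filterByExpr, 1 residual degree of freedom) with the mouse as a block, since both sums come from 1 animal, and with DESeq2 1.42.0. The step was tested on simulated data (3172 genes, 3 false calls). With so few sums, each gene's variance rests largely on the rest of the genes.

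The members, the 25 gene lists and the tests were chosen with earlier results of these data known. Any listed gene could be named. Beyond them, the text named the 15 highest and 5 lowest genes against other cells (50 UMIs in members of each mouse for the highest), the 10 largest age differences each way (50 UMIs, intervals apart, at most 25% of UMIs in 1 cell) and Cd24a. Prg4-related genes outside the lists, the genes at a low unadjusted p outside them, and the limits of 10 Prg4, 10 Bglap and 20 Col1a1 UMIs were chosen after the values were seen. Where a symbol had more than 1 identifier, the one with more UMIs was used. Sequence windows came from RefSeq. Alternatives were other limits, doublets left out, thinning to 2000 UMIs, other added CPM, and fits without the block, TMM or the filter.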

Additional observations from a re-analysis of the deposited data

Results flagged for a closer look

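In 4 listed genes the CD24+ to CD24- log2 ratio passed 1 in opposite directions in the 2 mice, with counting intervals that did not overlap within either mouse. The difference between the mice was not tested. Cilp2 had 1.16 (young) and -6.44 (old), and in the old library the 3 CD24+ cells held 0 UMIs, which against the floor of 3 counts is at least 9.74-fold lower than the 428 CPM of CD24- cells. The value of -6.44 depends on the 5 CPM added, and 1 cell held 63.9% of the 83 Cilp2 UMIs of old CD24- cells. Mef2c, a transcription factor of hypertrophy, had -1.10 and 3.05, Ihh had -1.47 and 4.56, and Alpl, the alkaline phosphatase of mineralizing cells, had -1.07 and 3.11. In the old mouse the cell rich in Col10a1 held 98.9% of the CD24+ UMIs of Mef2c, 100% of those of Ihh and 100% of those of Alpl.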

How the results depend on the processing

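Thinning each cell to 2000 UMIs before the rule left 26 young and 5 old chondrocytes, and thinned sums called 62 genes higher and 25 lower in the old mouse. Adding 20 CPM gave 219 genes higher and 498 lower than in other cells. At 1.5 times the antibody threshold 23.7% of young and 16.7% of old members were CD24+, and at the lower threshold 50.8% and 41.7%. Without the filter on low counts edgeR called 3 of 13789 genes between CD24+ and CD24- members, Lpl higher and Cxcl1 and Inhba lower, and Lpl was at 0 in the old mouse. Without the replicate block (the pairing is by mouse) 0 genes were called, as in the fit with it. Signs turned for Cdkn1a (-0.00233 without the filter, -1.44 at the higher and -0.31 at the lower antibody threshold), for Col2a1 (0.06 at the higher) and for Sox9 (0.19 at the lower threshold), each with an edgeR adjusted p of 0.999 or 1. Each mouse alone gave -0.02 to 1.43 for Cd24a, -0.04 to 0.13 for Cdkn1a and -0.36 to 0.08 for Sox9. For old against young, P4ha2 turned to -0.51 after thinning and to -1.08 under the Prg4 limit, where Fmod (-0.23), Col5a2 (-1.66) and Lum (-2.35) turned too. The cause was not tested. The old mouse rests on 12 members, 3 of them CD24+. Values without single cells that held most of a sum, chosen after the data had been seen, stand beside some of those sums.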
